A study of Mus musculus with 4 samples.

Results

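The genes described here code for the collagens, the laminins, the integrins and 6 further matrix proteins, measured as newly made RNA in mouse embryonic stem cells. They were taken by symbol alone: every row of the count table whose symbol has the form of a collagen chain, a laminin α, β or γ chain, or a numbered or v-type integrin chain, together with Fn1, Nid1, Nid2, Hspg2, Sparc and Agrn. This gave 82 of 55401 genes, made up of 44 collagen chains, 11 laminin chains, 13 integrin α chains, 8 integrin β chains and the 6 single matrix genes. The cells are of the 129/Ola line and carry a degron that auxin switches on, fused to SNRNP70, a protein of the U1 splicing particle, which recognises the start of introns. The auxin-treated group had received IAA (an auxin, which sends the tagged protein to the proteasome) for 5 h, and the untreated group had received it for 0 h. There were 2 libraries of each. Both groups were grown in serum with leukemia inhibitory factor, and by their titles both carry the degron, although the genotype label of the untreated cells is WT. RNA was marked with 4-thiouridine (4sU), a uridine analogue taken up into RNA under synthesis, and was enriched on streptavidin beads before sequencing. Whether the line is 1 clone, and how long the label was given, are not stated in the sources used here. The series text speaks of 2 independent replicates, but nothing says that they were separate cultures, and if they were not, the p-values below cover technical spread only.

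Cells sit on and inside an extracellular matrix. Laminins are trimers of 1 α, 1 β and 1 γ chain that assemble into the first sheet of a basement membrane; type IV collagen forms its second network, and nidogens, perlecan (Hspg2) and agrin tie the 2 networks together. Fibrillar collagens make the rope-like fibres of connective tissue. Integrins are pairs of 1 α and 1 β chain that hold this matrix from the cell surface and pass its signals inward. Early mouse embryos make a laminin-rich basement membrane, and cultured mouse stem cells grow on laminin and fibronectin through integrins.

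Values are counts scaled to a common library size with TMM factors (CPM), a scale that does not correct for gene length, so levels are compared between libraries and not between genes. Total counts were 15645894 and 10349277 in the auxin-treated libraries and 17752887 and 7174772 in the untreated libraries. The counts have the layout of a coverage-based export, so a fragment may add more than 1 count, and low values are less certain than their size implies. RNA of the targeted gene, Snrnp70, was at 451 and 475 CPM in auxin-treated libraries, against 249 and 243 CPM in untreated libraries; since the degron acts on the protein, this does not check the depletion. Markers of undifferentiated stem cells such as Pou5f1, Nanog and Zfp42 summed over 10 genes to 4256 and 4147 CPM in auxin-treated libraries and to 4220 and 4063 CPM in untreated libraries. Of these 10, 4 were called higher and 3 lower (40% and 30%, against 22.0% and 21.2% of all tested genes). As log2 fold changes, these included Sox2 (0.86, or 0.01 with scaling to mitochondrially encoded genes), Klf4 (0.61, or -0.22), Tdgf1 (-0.64) and Tfcp2l1 (-0.52). The part of these markers in the results below was not tested. The 14 fibroblast markers summed to 20.7 and 16.1 CPM in auxin-treated libraries and to 16.1 and 16.9 CPM in untreated libraries, and Dcn, Lum, Postn, Lox and Twist2 had 0 counts in all 4. The 12 markers of extraembryonic endoderm, a matrix-rich early lineage, summed to 20.0 and 17.1 CPM in auxin-treated libraries and to 19.0 and 12.6 CPM in untreated libraries, with Afp at 0 in all 4. Of the tested fibroblast and endoderm markers (5 and 7), 0 passed the threshold by edgeR, and all had an adjusted p of at least 0.112. Most of them had a mean under 5 CPM, where 15.5% of all tested genes passed, so this does not show that they were steady. In bulk RNA, fewer cells of a type and less RNA per cell cannot be told apart.

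Of the 82 genes, 49 passed the filter on low counts and were tested, as did 17344 of all 55401 genes: 19 of 44 collagens, 9 of 11 laminins, 9 of 13 integrin α chains, 6 of 8 integrin β chains and 6 of 6 single matrix genes. The filter lets a gene through on the strength of 1 group, so the tested genes are not a neutral sample of the 82. The other 33 included 14 with 0 counts in every library, 11 of them collagens. Col3a1, a main fibre collagen of connective tissue, was among these, as were Col4a3, Col4a4, Col4a5 and Col4a6, the chains of type IV collagen outside the widespread Col4a1 and Col4a2 pair. Lamc3, Itga11 and Itgb8 also had no count. Col1a2, which pairs with Col1a1 in type I collagen, had 3 and 3 counts in auxin-treated libraries and 4 and 0 counts in untreated libraries. A count of 0 is compatible with up to 3 counts, which is 0.207 and 0.324 CPM in the auxin-treated libraries and 0.154 and 0.382 CPM in the untreated libraries, for counting error only.

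After auxin, labelled RNA of 12 of the 49 tested genes was lower and that of 5 was higher, by the quasi-likelihood test of edgeR at a Benjamini-Hochberg adjusted p under 0.05. The lower genes included the laminin chain Lama1, the integrin chains Itga6, Itgav, Itgb4 and Itgb7, the matrix genes Fn1 and Sparc, and the collagens Col18a1, Col6a4, Col11a2 and Col14a1. The higher genes were Lama5, Itga5, Nid2, Col4a1 and Col20a1. The number called higher changed with the library that was left out. Such a fit leaves 1 library in a group and changes the number of calls over all tested genes too. Over all 17344 tested genes 22.0% were called higher and 21.2% lower, so the share of these genes that was lower (24.5%) was near the background and the share that was higher (10.2%) was below it. The difference from the background was not tested. In 21 of the 49 genes both auxin-treated libraries lay below both untreated ones, and in 11 both lay above, where 37.5% and 36.0% of all tested genes did so. Among the 27 genes with a mean of at least 5 CPM, 5 were higher and 10 lower, or 18.5% and 37.0%, against 29.6% and 27.6% of all tested genes at that level. Their median log2 fold change, auxin-treated over untreated, was -0.39, while that of all tested genes at that level was 0.02. Over the 49 genes the median was -0.07, and over all 17344 it was -0.02.

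**Figure D1:**
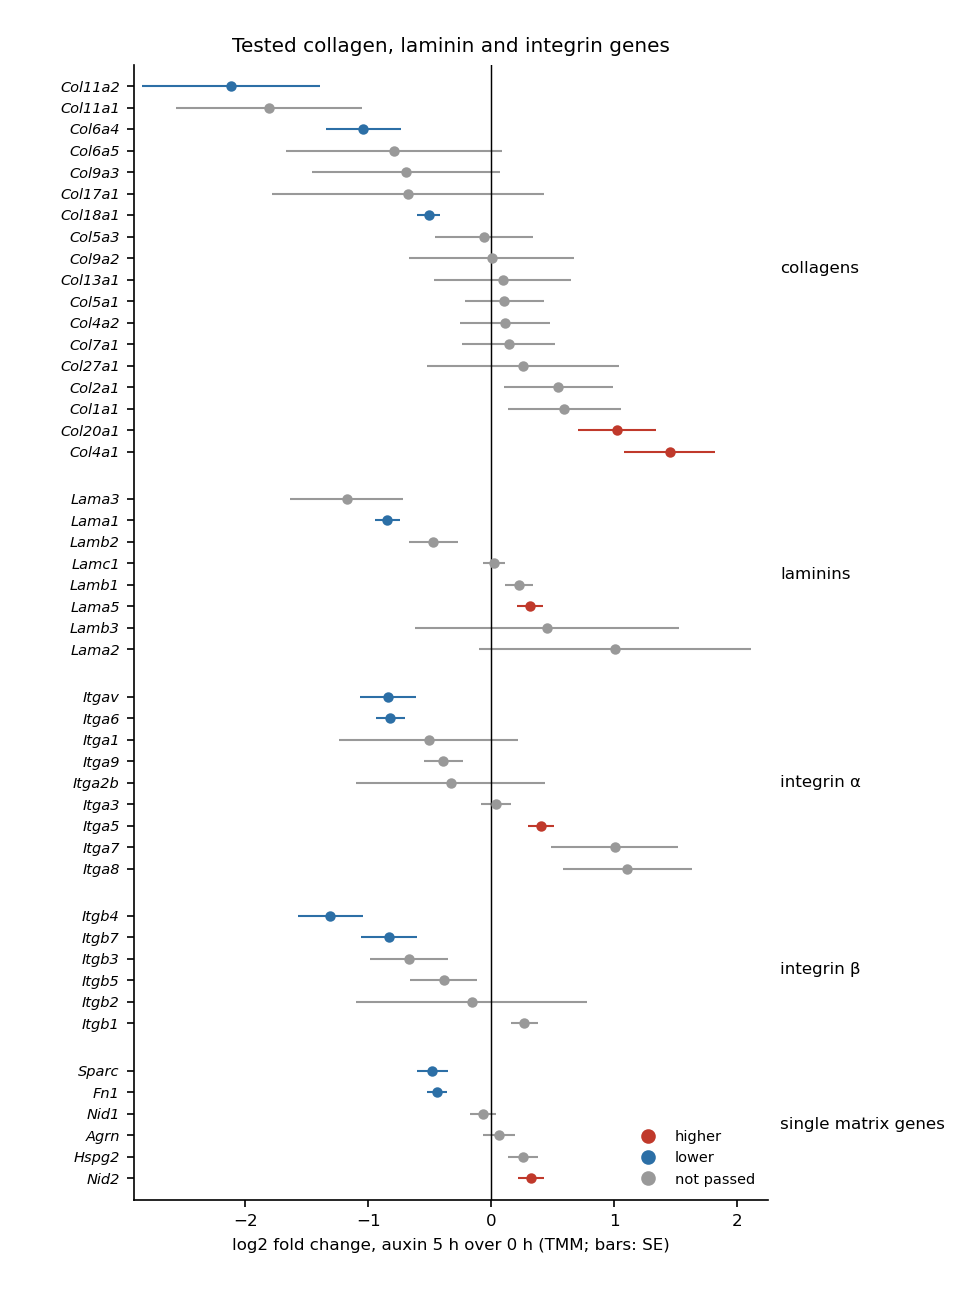
Log2 fold change (auxin 5 h over 0 h, x axis) of 47 tested genes, grouped by family and sorted within it, with bars for the SE of the fit; red, blue and grey mark genes called higher, lower or not passed. Col14a1, with 0 counts in both auxin-treated libraries, is left out, and the values drawn run from -2.12 (Col11a2) to 1.45 (Col4a1).

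No spiked-in RNA is described, so these directions hold against the rest of each library's RNA. With scaling to library totals the median of all tested genes was -0.28, and 1 of the 49 genes was higher and 18 were lower. Of all 17344 tested genes 2297 were called higher and 5257 lower on that scale. The mitochondrially encoded genes took 6.03% and 7.17% of counts in auxin-treated libraries and 4.41% and 4.34% in untreated libraries. With scaling to them the median of all tested genes was -0.86, and 0 of the 49 genes were higher and 27 lower. Of all 17344 tested genes 396 were called higher and 8872 lower on this scale. On the mitochondrial scale Lama5, Itga5 and Nid2 turned to values below 0, at -0.51, -0.44 and -0.51. Of these, Lama5 and Nid2 passed as lower and Itga5 did not pass. Col4a1 and Col20a1 stayed above 0 without passing. Calls of 6 genes, all lower, held in each of 13 alternative analyses (3 other scalings, 2 other tests, 2 other filters, counts divided by 4, a replicate block and the 4 fits that each leave out a library). Library totals and mitochondrial scaling move all genes down, so they could not turn a lower call round. The 6 genes included Lama1, Itga6, Itgb4, Fn1 and Col18a1.

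**Figure D2:**
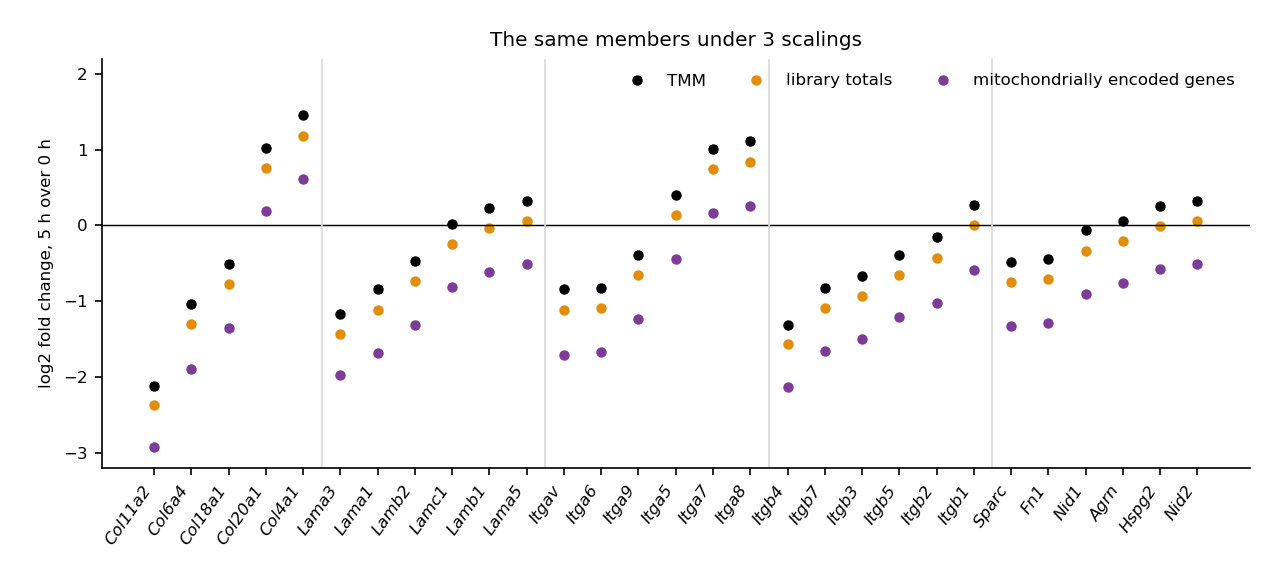
Log2 fold change (auxin 5 h over 0 h, y axis) of 29 genes under TMM (black), library totals (orange) and mitochondrially encoded genes (purple). A change of scale moves all genes down nearly together, so genes near 0 such as Lama5 (0.32, 0.05 and -0.51) change side, whereas Lama1 (-0.84, -1.11 and -1.69) does not.

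Of the 9 tested laminin chains 1 was called higher and 2 lower (11.1% and 22.2%), against 22.0% and 21.2% of all tested genes. Lama1, the α chain of the laminin that the early embryo makes first, had 70.6 and 71.3 CPM in auxin-treated libraries, against 128 and 126 CPM in untreated libraries. The groups did not overlap, and the log2 fold change was -0.84 ± 0.10 (SE; edgeR, adjusted p = 0.000120), which is 1.79-fold lower. Lama5, the α chain of the main laminin of later epithelia and of pluripotent cells, had 590 and 476 CPM in auxin-treated libraries, against 435 and 420 CPM in untreated libraries. It was the 1 laminin called higher (0.32 ± 0.11, adjusted p = 0.0335). That call was lost with library totals, and with mitochondrial scaling Lama5 passed as lower (-0.51). The call as higher was also lost without untreated replicate 1 (log2 fold change 0.35), without untreated replicate 2 (0.29) and without auxin-treated replicate 1 (0.16). The value was 0.48 without auxin-treated replicate 2. Both α chains assemble with Lamb1 and Lamc1, and neither of these passed with TMM scaling and all 4 libraries. With mitochondrial scaling Lamb1 and Lamc1 passed as lower (-0.62 and -0.82). Lamb1 had 85.8 and 79.2 CPM in auxin-treated libraries, against 68.5 and 73.0 CPM in untreated libraries (0.23 ± 0.11, adjusted p = 0.127). Its value ran from 0.17 to 0.30 when 1 library was left out. Lamc1 had 447 and 403 CPM in auxin-treated libraries, against 430 and 407 CPM in untreated libraries, with groups that overlapped and a log2 fold change of 0.02 ± 0.09.

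Other laminin chains were sparser. Lama3, a chain of laminins under epithelia, had 3.94 and 1.30 CPM in auxin-treated libraries, against 6.18 and 6.11 CPM in untreated libraries (-1.18 ± 0.46, adjusted p = 0.0610), and Lamb3 stayed at 10 counts or fewer in every library. Lama3 did not pass, but it did so in 7 of the alternative analyses, and its log2 fold change was -2.23 without auxin-treated replicate 1 and -0.62 without auxin-treated replicate 2. Lamb2, a β chain of synapse and kidney laminins, had 12.8 and 12.6 CPM in auxin-treated libraries, against 16.8 and 18.6 CPM in untreated libraries. It did not pass (-0.47 ± 0.20, adjusted p = 0.0776). Lamb2 passed as lower with library totals (-0.74), with mitochondrial scaling (-1.31) and with a filter of at least 50 counts in 2 libraries. With DESeq2 and limma-voom it did not pass. Lama2, the muscle laminin chain, had 9 and 24 counts in auxin-treated libraries and 26 and 0 counts in untreated libraries, which allows no statement on its direction, although it passed without untreated replicate 1.

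Of 15 tested integrin genes 1 was higher, 4 were lower and 10 did not pass, and the shares of 6.67% and 26.7% stand against 22.0% and 21.2% of all tested genes. Itga6, the α chain of laminin receptors and a surface marker of stem cells, had 83.1 and 91.1 CPM in auxin-treated libraries, against 169 and 138 CPM in untreated libraries. The groups did not overlap (-0.82 ± 0.12, adjusted p = 0.000375). Itgb4, which pairs with Itga6 in the hemidesmosome, the rivet that fixes epithelia to their basement membrane, had 5.94 and 4.43 CPM in auxin-treated libraries, against 13.4 and 12.5 CPM in untreated libraries. Its log2 fold change was -1.31 ± 0.26 (adjusted p = 0.00244), or 2.48-fold lower. Itgb1, the other β chain that pairs with Itga6 and the partner of most matrix-binding α chains, had 129 and 148 CPM in auxin-treated libraries, against 108 and 122 CPM in untreated libraries. The groups did not overlap, but Itgb1 did not pass (0.27 ± 0.11, adjusted p = 0.0742). With mitochondrial scaling it passed as lower (-0.59, edgeR adjusted p = 0.0101). It passed as higher with limma-voom (0.0495) and with counts divided by 4 (0.0473), and its value was 0.37 without auxin-treated replicate 1.

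Itga5, which with Itgb1 forms the main fibronectin receptor, had 117 and 106 CPM in auxin-treated libraries, against 83.1 and 86.3 CPM in untreated libraries. It was called higher (0.40 ± 0.11, adjusted p = 0.0105), and the call was lost without untreated replicate 1 (0.0887), without untreated replicate 2 (0.0722), with library totals and with mitochondrial scaling. Itga5 lies on chromosome 15 from 103344286 to 103366791 (mm10). Itgav, which binds fibronectin and vitronectin with several β chains, had 10.4 and 16.4 CPM in auxin-treated libraries, against 24.2 and 23.3 CPM in untreated libraries. It was lower (-0.84 ± 0.23, adjusted p = 0.0123), but the 2 auxin-treated libraries lay apart, and without replicate 1 of them the log2 fold change was -0.53 and did not pass (adjusted p = 0.0535). Of its β partners, Itgb3 (-0.67 ± 0.32) and Itgb5 (-0.39 ± 0.27) had groups that did not overlap, both below, without passing. Of all tested genes 37.5% lay below in this way, and the Itgb5 groups nearly touched (10.22 CPM after auxin against 10.24 CPM untreated). Itgb1, the partner of most matrix-binding α chains, lay above (0.27). Itgb7, a β chain known from lymphocyte homing, had 10.4 and 8.11 CPM in auxin-treated libraries, against 17.7 and 15.1 CPM in untreated libraries (-0.83 ± 0.23, adjusted p = 0.0134). That call was lost without untreated replicate 1 (0.0941) and without auxin-treated replicate 2 (0.0522). Its partner Itga4 had 3 and 0 counts in auxin-treated libraries and 0 counts in both untreated libraries.

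The remaining integrins did not pass in the fit used for the calls above. Itga9, a receptor for tenascin and other ligands, had 21.2 and 20.4 CPM in auxin-treated libraries, against 27.0 and 27.6 CPM in untreated libraries (-0.39 ± 0.16, adjusted p = 0.0719). By edgeR it passed as lower with library totals (0.0084), mitochondrial scaling (0.00060), a stricter filter (0.0370) and counts divided by 4 (0.0481). With DESeq2 (0.226) and limma-voom (0.0654) Itga9 did not pass. Itga3, a laminin receptor chain, had 79.8 and 66.3 CPM in auxin-treated libraries, against 72.9 and 69.5 CPM in untreated libraries, with overlapping groups. With mitochondrial scaling Itga3 passed as lower (-0.79). Itga7, the muscle laminin receptor chain, had 48 and 28 counts in auxin-treated libraries and 22 and 17 counts in untreated libraries (1.01 ± 0.52, adjusted p = 0.143), and Itga8, known from kidney formation, had 36 and 35 counts in auxin-treated libraries and 34 and 8 counts in untreated libraries (1.11 ± 0.53, adjusted p = 0.115). These 2 had the highest integrin log2 fold changes, on few counts. Itga7 passed as higher with limma-voom (adjusted p = 0.0443) but not with DESeq2 (0.328). Itgb2, the β chain of white blood cells, had at most 14 counts in any library, and Itga1 and Itga2b at most 34 and 23.

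Of the single matrix genes, Fn1, the gene of fibronectin, had 509 and 496 CPM in auxin-treated libraries, against 678 and 685 CPM in untreated libraries. Replicates lay close together and the groups well apart, with a log2 fold change of -0.44 ± 0.08 (adjusted p = 0.00147), or 1.36-fold lower. Sparc, a collagen-binding glycoprotein, had 45.8 and 51.1 CPM in auxin-treated libraries, against 69.5 and 64.9 CPM in untreated libraries (-0.48 ± 0.12, adjusted p = 0.0101). Without untreated replicate 1 it did not pass (adjusted p = 0.0950).

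Of the 4 genes that link the laminin and collagen networks, 1 passed the threshold in the fit used for the calls above. Nid2 had 328 and 267 CPM in auxin-treated libraries, against 238 and 238 CPM in untreated libraries, and was called higher (0.32 ± 0.11, adjusted p = 0.0322). The call was lost with library totals, and with mitochondrial scaling Nid2 passed as lower (-0.51). The call as higher was also lost without untreated replicate 1 (log2 fold change 0.33), untreated replicate 2 (0.32) or auxin-treated replicate 1 (0.17). Nid1, its paralogue, had 114 and 105 CPM in auxin-treated libraries, against 119 and 110 CPM in untreated libraries (-0.07 ± 0.10, adjusted p = 0.643). Hspg2, the gene of perlecan, had 596 and 458 CPM in auxin-treated libraries, against 469 and 413 CPM in untreated libraries, with overlapping groups (0.26 ± 0.12, adjusted p = 0.120). It passed as higher with no filter (0.0257), and its log2 fold change was 0.45 without auxin-treated replicate 2. With mitochondrial scaling Hspg2 passed as lower (-0.57, edgeR adjusted p = 0.0237). Agrn, the gene of agrin, had 319 and 239 CPM in auxin-treated libraries, against 281 and 254 CPM in untreated libraries (0.06 ± 0.13, adjusted p = 0.729). Its value was 0.27 without auxin-treated replicate 2. With mitochondrial scaling Agrn and Nid1 also passed as lower (-0.76 and -0.90). In Lama5, Nid2, Hspg2 and Agrn alike, auxin-treated replicate 1 was the highest of the 4 libraries.

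**Figure D3:**
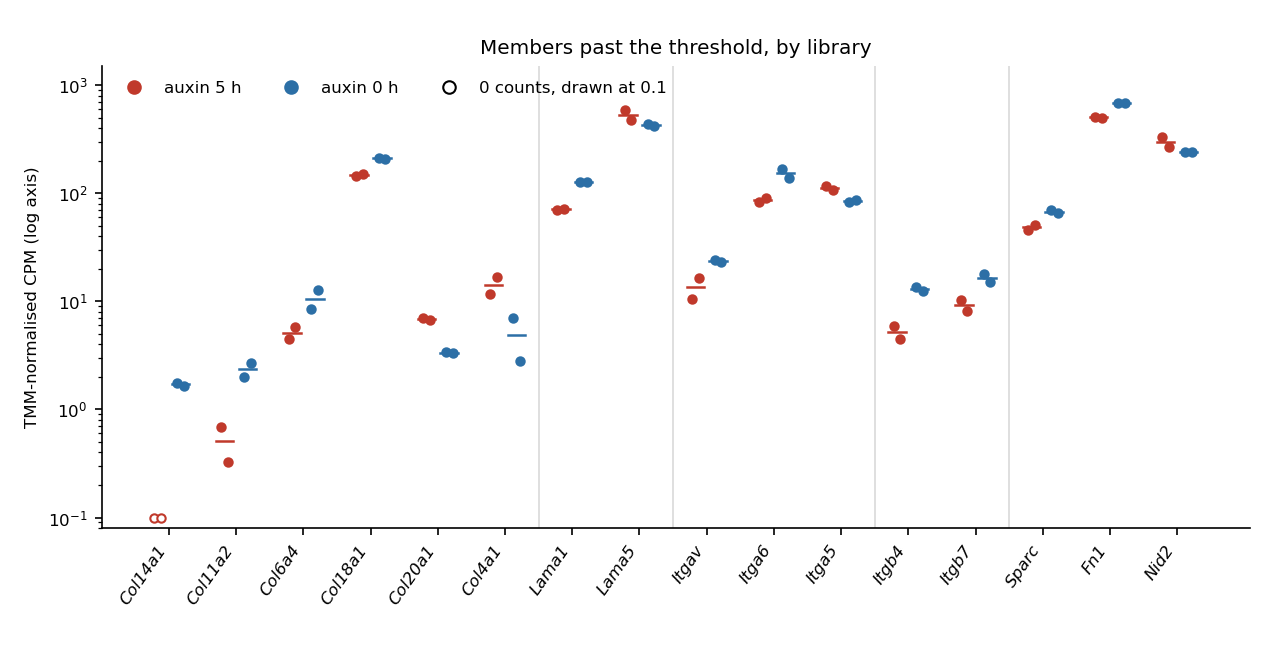
TMM-normalised CPM (log y axis) of 16 genes past the threshold, with each library as a point, auxin 5 h left of 0 h, and a line at the mean of 2 libraries. Groups do not overlap for any of the 16, and Col14a1 has 0 counts in both auxin-treated libraries.

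Collagens gave 2 genes higher, 4 lower and 13 not passed of 19 tested, or 10.5% higher and 21.1% lower against 22.0% and 21.2% of all tested genes. Col18a1, a basement membrane collagen whose end piece is endostatin, had 145 and 150 CPM in auxin-treated libraries, against 212 and 209 CPM in untreated libraries (-0.51 ± 0.09, adjusted p = 0.00120), or 1.42-fold lower. Col18a1 had at least 1391 counts in every library, and every other collagen had at most 169 in any. Col6a4, a chain of the beaded filament collagen, had 65 and 53 counts in auxin-treated libraries and 166 and 99 counts in untreated libraries (-1.04 ± 0.30, adjusted p = 0.0184), and did not pass without untreated replicate 2 (0.163) or auxin-treated replicate 1 (0.0547). Col6a5, its neighbour on chromosome 9, had 6 and 8 counts in auxin-treated libraries and 24 and 7 counts in untreated libraries and did not pass.

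Both genes called higher among the collagens had few counts. Col4a1 codes for the chain that makes up most of the common type IV collagen, together with Col4a2. It had 169 and 156 counts in auxin-treated libraries and 135 and 22 counts in untreated libraries, which is 11.7 and 16.9 CPM in auxin-treated libraries against 6.95 and 2.80 CPM in untreated libraries. The log2 fold change was 1.45 ± 0.37 (adjusted p = 0.00910). The 2 untreated libraries lay far apart, and without replicate 1 of them the value was 2.34, while without replicate 2 it was 1.03. Col4a2 had 67 and 34 counts in auxin-treated libraries and 68 and 34 counts in untreated libraries (0.11 ± 0.37, adjusted p = 0.836). Of the 7 tested endoderm markers, whose cells are rich in type IV collagen, 5 had a log2 fold change above 0 and 2 below, and 0 passed. Gata6 was at 0.98 and Sox7 at 0.44, while Dab2 was at -0.92 and Pdgfra at -0.61. The part of these markers in the Col4a1 value was not tested. Col20a1, a fibre-associated collagen, had 101 and 62 counts in auxin-treated libraries and 66 and 26 counts in untreated libraries (1.02 ± 0.32, adjusted p = 0.0240). It did not pass with library totals, mitochondrial scaling or DESeq2 (0.0980), nor without untreated replicate 1 (0.0820), untreated replicate 2 (0.0929) or auxin-treated replicate 1 (0.0628).

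Col4a1 and Col4a2 are read in opposite directions from nearly the same place on chromosome 8. In the RefSeq promoter table (GRCm38, the assembly of mm10) the start listed for Col4a1 is 11312826 on the minus strand, and that for Col4a2 is 11312805 on the plus strand. The gene span of Col4a1 reaches further, to 11312889, so this is not its outermost start. The 22 bases between the 2 listed starts, in the transcripts of both genes, are shown because 1 of the genes that share this start was called higher and the other did not pass; the difference between them was not tested. They are written 5′ to 3′ on the plus strand (chr8:11312805-11312826), with the GC box letters GGGCGG in capitals.
Col4a1/Col4a2: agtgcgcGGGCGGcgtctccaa
The counting did not state a strand setting, so reads over this stretch could fall to either gene.

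The promoter stretches of 1 gene called higher (Itga5) and 2 called lower (Col18a1 and Sparc) are shown. In each the RefSeq start is the outer edge of the gene, so that the 150 bases before it lie outside the transcript. Only some of the called genes were checked for this, so others may qualify. Each is written 5′ to 3′ on its own strand, which is minus for all 3, with matches of GGGCGG or its reverse complement CCGCCC in capitals; TATAAA and its reverse complement TTTATA were also searched, and these pairs cannot overlap a GC box. Positions are chr15:103366792-103366941 for Itga5, chr10:77166531-77166680 for Col18a1 and chr11:55420081-55420230 for Sparc (GRCm38).
Itga5: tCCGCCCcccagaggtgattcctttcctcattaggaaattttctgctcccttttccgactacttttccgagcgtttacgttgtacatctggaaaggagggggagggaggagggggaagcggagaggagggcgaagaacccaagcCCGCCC
Col18a1: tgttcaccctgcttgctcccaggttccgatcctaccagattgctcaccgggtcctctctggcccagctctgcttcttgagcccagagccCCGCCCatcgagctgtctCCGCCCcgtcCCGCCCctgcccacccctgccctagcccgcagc
Sparc: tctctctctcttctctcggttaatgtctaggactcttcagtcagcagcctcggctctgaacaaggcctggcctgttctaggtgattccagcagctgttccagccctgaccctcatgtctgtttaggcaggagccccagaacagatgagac
The GC box letters occurred 2 times before Itga5, 3 times before Col18a1 and 0 times before Sparc, and TATAAA in none of the 3. Of all 32851 RefSeq promoter stretches of this length, 28.6% held a GC box and 7.57% TATAAA in either orientation. A promoter was listed for 60 of the 82 genes (73.2%), too few for a comparison of promoter content over the set, which is therefore void.

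Col14a1, a collagen that decorates fibres, had 0 counts in both auxin-treated libraries and 34 and 13 counts in untreated libraries. The untreated mean was 6.41-fold above the mean of the 3-count floors of the auxin-treated libraries, which leaves out the error of the few untreated counts. Col14a1 was called lower (edgeR, adjusted p = 0.00412), but it entered the test through its untreated counts alone. It was below the filter with at least 50 counts in 2 libraries, with counts divided by 4, and without untreated replicate 1. Col11a2 and Col11a1, chains of the fibril collagen of cartilage, had 10 and 3 counts and 5 and 8 counts in auxin-treated libraries, against 39 and 21 counts and 38 and 17 counts in untreated libraries. Col11a2 passed (-2.12 ± 0.72, adjusted p = 0.0364) and Col11a1 did not (-1.81 ± 0.75, adjusted p = 0.0774). Col11a2 was lost with DESeq2 (0.0817), with limma-voom (0.0577), without either untreated library (0.120 and 0.167) and without auxin-treated replicate 2 (0.0951), and it was -2.79 without auxin-treated replicate 1. With the stricter filter and with counts divided by 4 it was not tested. Col11a1 passed as lower with library totals (-2.07), with mitochondrial scaling (-2.67) and without auxin-treated replicate 2.

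The other collagens were sparse and did not pass. Col1a1, the main chain of bone and skin collagen, had 47 and 30 counts in auxin-treated libraries and 51 and 12 counts in untreated libraries (0.60 ± 0.46, adjusted p = 0.326). Col5a1, which starts collagen fibres, had 106 and 45 counts in auxin-treated libraries and 105 and 48 counts in untreated libraries. Col7a1, the anchoring fibril collagen of skin, had 72 and 30 counts in auxin-treated libraries and 72 and 30 counts in untreated libraries as well. Neither of the last 2 differed beyond the spread of its libraries, and at this depth smaller changes were not detectable.

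Ratios of counts between 2 genes within a library do not depend on any scaling between libraries. The pairs below were chosen after the values were seen and are given without a test. The ratio of Lama1 to Lama5 was 0.120 and 0.150 in auxin-treated libraries, against 0.294 and 0.301 in untreated libraries. The 2 groups were well apart and the replicates close. The ratio of Itga6 to Itga5 was 0.710 and 0.856 in auxin-treated libraries, against 2.03 and 1.60 in untreated libraries. That of Itgb4 to Itgb1 was 0.0460 and 0.0300 in auxin-treated libraries, against 0.124 and 0.102 in untreated libraries. Fibronectin to its receptor chain, Fn1 to Itga5, was at 4.35 and 4.66 in auxin-treated libraries, against 8.15 and 7.94 in untreated libraries. For Col4a1 to Col4a2 the values were 2.52 and 4.59 in auxin-treated libraries, against 1.99 and 0.647 in untreated libraries, with wide spread in each group. The ratio of Lamb1 to Lamc1 was 0.192 and 0.196 in auxin-treated libraries, against 0.159 and 0.180 in untreated libraries, and that of Lama5 to Lamc1 was 1.32 and 1.18 in auxin-treated libraries, against 1.01 and 1.03 in untreated libraries.

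**Figure D4:**
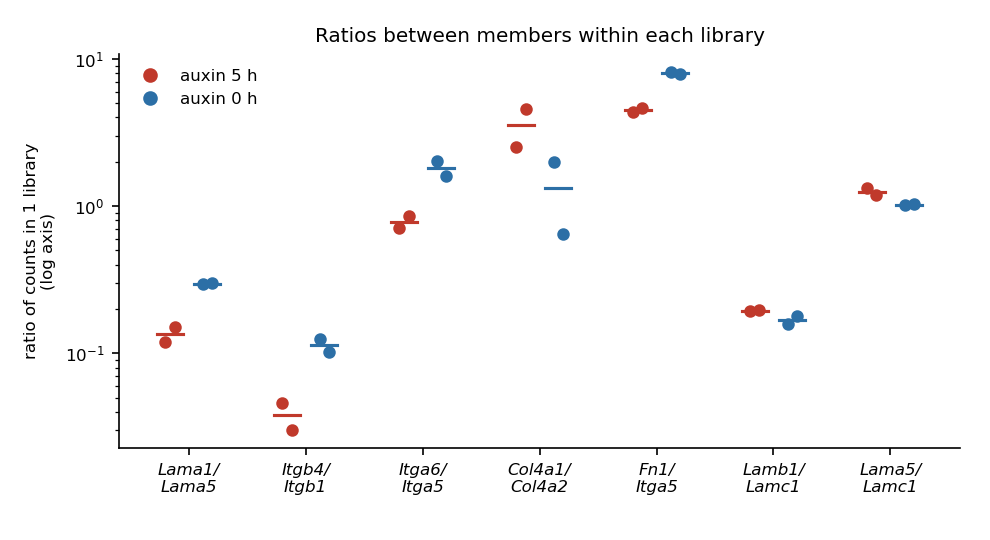
Ratio of the counts of 2 genes within 1 library (log y axis), with each library as a point, auxin 5 h left of 0 h, and a line at the mean. In 4 of the 7 pairs the auxin-treated libraries lie below the untreated ones, as in Lama1/Lama5 (0.120 and 0.150 against 0.294 and 0.301), and in Col4a1/Col4a2, Lamb1/Lamc1 and Lama5/Lamc1 they lie above.

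Genes that make, cut or read the matrix were taken from 5 lists of 146 genes that do not belong to the 82. Of the 118 tested, 17 were higher and 27 lower (14.4% and 22.9%, against 22.0% and 21.2% of all tested genes), with a median log2 fold change of -0.29, against -0.02 over all tested genes. Cytoplasmic proteins that link integrins to actin gave 6 higher and 14 lower of 36 tested (16.7% and 38.9%). Crk, an adaptor of adhesion signalling, had 51.4 and 54.8 CPM in auxin-treated libraries, against 140 and 157 CPM in untreated libraries (-1.48 ± 0.11). Ptk2, the focal adhesion kinase, had 39.3 and 44.1 CPM in auxin-treated libraries, against 86.2 and 92.9 CPM in untreated libraries, and Lims1, which joins integrin-linked kinase to actin, had 25.8 and 31.1 CPM in auxin-treated libraries, against 60.0 and 59.3 CPM in untreated libraries.

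Matrix receptors other than integrins gave 4 higher and 2 lower of 16 tested (25% and 12.5%). Sdc4, a syndecan that helps fibronectin adhesion, was higher (0.93 ± 0.12; 0.09 with mitochondrial scaling), and Dag1, the dystroglycan that binds laminin, was lower (-0.62 ± 0.10). Rpsa, a ribosomal protein also described as a laminin receptor and rich in pseudogene copies, was higher (0.80 ± 0.09; -0.04 with mitochondrial scaling). Collagen-processing genes gave 2 higher and 5 lower of 23 (8.70% and 21.7%), with Pcolce, the enhancer of procollagen cleavage, at -0.92 ± 0.13, the protease gene Adamts14 at -0.81 ± 0.15, and the lysyl hydroxylase gene Plod3 at 0.69 ± 0.12 (-0.15 with mitochondrial scaling). Matrix proteases and inhibitors gave 2 higher and 3 lower of 21 (9.52% and 14.3%), among them Mmp11 (-1.42 ± 0.24), Plaur (-0.86 ± 0.19) and Adam17 (0.57 ± 0.10; -0.28 with mitochondrial scaling). Other matrix genes gave 3 higher and 3 lower of 22 (13.6% each). The matricellular genes Ccn1 and Ccn2 were higher (1.76 ± 0.20 and 1.33 ± 0.12) under all 3 scalings shown above, and Vcan, the gene of the proteoglycan versican, was lower (-0.72 ± 0.12).

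Matrix genes are long, and gene span was set beside the changes. The 49 tested genes had a median span of 63.7 kb from first to last base, against 19.3 kb for 15096 tested genes with a known span. Of the 19 tested matrix and integrin genes of 100 kb or more, 1 was higher and 4 lower, with a median log2 fold change of -0.39, against 9.21% higher and 29.9% lower and a median of -0.29 for the 1715 tested genes of that span. Of the 8 from 50 to 100 kb, 1 was higher and 4 lower, with a median of -0.55, against 16.3% and 36.2% and a median of -0.28 for 1933 genes. The 14 from 25 to 50 kb had 2 higher and 3 lower and a median of 0.05, against 18.0% and 32.9% and -0.24 for 2779 genes. The 8 under 25 kb had 1 higher and 1 lower and a median of -0.16, against 27.0% and 15.6% and 0.16 for 8669 genes. Across the 49 genes Spearman's rho between span and log2 fold change was -0.10, and across the 15096 it was -0.30, as descriptions over genes that share the same 4 libraries. Whether span has a part in the changes of the matrix and integrin genes was not tested.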

How the data were processed

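4sU-labelled RNA of 4 libraries was analysed. The authors' deposited table gives estimated counts per gene as whole numbers, so rounding changed nothing. The submitters' processing notes list the mm10 build and, with no roles, the tools StringTie 2.2.1, HISAT2 2.2.1 and DESeq2 1.42.0. Which of them made the table, the annotation and the strand setting are not given in the sources used here. Replicate libraries were not copies of each other: their log CPM correlated at r = 0.965 (auxin-treated) and r = 0.969 (untreated).

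Genes kept by filterByExpr (17344 of 55401) were fitted with edgeR 4.0.16 (TMM, quasi-likelihood test, robust), auxin-treated minus untreated, all 4 libraries, no block. Benjamini-Hochberg adjustment ran over all tested genes, with 0.05 as the threshold. SEs come from the test's F statistic. Alternatives used DESeq2 1.42.0, limma 3.58.1 and other scalings, filters and subsets.

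Genes and lists were chosen with earlier results of these data known. By rule, the 6 genes per family with the lowest adjusted p and the 2 with the highest mean CPM are described with values. Of each other list the 3 with the lowest adjusted p are described. Genes given with values outside this rule include Itga3, Lama2, Col4a2, Col1a1, Col5a1, Col7a1, Col6a5 and Col11a1. Further genes are named as members of the families. One gene that entered the counts is not reported here. Positions, spans and sequences are from RefSeq tables of GRCm38, in which all 82 genes matched by symbol.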

Additional observations from a re-analysis of the deposited data

How the results depend on the processing

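DESeq2 size factors, the DESeq2 test (4 higher, 11 lower), limma-voom (7 and 12), no filter (6 and 13), counts divided by 4 (6 and 12) and a replicate block (7 and 11) left the counts of 5 higher and 12 lower genes within 1.5 times. With library totals 1 was higher and 18 lower, and with mitochondrial scaling 0 were higher and 27 lower. Of all 17344 tested genes 2297 were higher and 5257 lower with library totals, and 396 and 8872 with mitochondrial scaling. Of the 118 partner genes 10 were higher and 38 lower with library totals, and 2 higher and 76 lower with mitochondrial scaling. These counts are to be read beside those over all tested genes, which also shifted to lower calls. The median over tested matrix and integrin genes was -0.33 with library totals, -0.93 with mitochondrial scaling and -0.27 with the stricter filter, where 30 were tested. Leaving out 1 library gave 1 to 8 higher and 8 to 11 lower genes, medians from -0.35 to -0.093, and 12 to 20 higher and 21 to 33 lower partner genes.

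Among the genes chosen per family by adjusted p or mean CPM, signs turned with library totals for Agrn (-0.20), Hspg2 (-0.0079), Lamb1 (-0.040) and Lamc1 (-0.24). With mitochondrial scaling they turned for these 4 (-0.76, -0.57, -0.62 and -0.82), Itga5 (-0.44), Itgb1 (-0.59), Lama5 (-0.51) and Nid2 (-0.51). Other genes near 0 turned as well, such as Itga3 (-0.23 with library totals) and Col4a2 (-0.15 with library totals). Lamc1 was at -0.022 with the stricter filter. When 1 library was left out, the values of genes near 0 spanned it: Agrn from -0.16 to 0.27, Itgb2 from -0.70 to 0.29, Lamc1 from -0.051 to 0.11 and Nid1 from -0.13 to 0.010. Apart from the scalings, whose construction shifts all genes, the causes were not tested.

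The replicate numbers were not used as pairs: deviations of same-numbered libraries from their group means correlated at r = 0.05 over 17344 genes. With the replicate block Col11a2 was lost (adjusted p = 0.0749) and Hspg2 (0.0283) and Itgb1 (0.0259) passed. Depth limits the 22 of the 49 tested genes with a mean under 5 CPM.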
